A study of Mus musculus with 4 samples.

Results

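The genes of cholesterol and fatty acid synthesis were followed through treatment of mouse primary osteoblasts with BMP2 and LOXL2. The set was a list of 30 genes given by symbol, and every non-control probe carrying one of those symbols in the array files was taken, which gave 46 of 55681 probes. It held 16 enzymes of sterol synthesis, 5 regulators and carriers of sterol, and 9 enzymes of fatty acid synthesis, set against 24041 genes measured on the arrays. All 30 genes were well above background on all 4 arrays, as were 45 of the 46 probes, the exception being a second Hmgcs1 probe.

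Primary osteoblasts were cultured in 10% serum for 72 h under 1 of 4 treatments: BMP2 (200 ng/ml) with LOXL2 (4 µg/ml), BMP2 alone, LOXL2 alone, or neither. BMP2 is a growth factor that drives bone and cartilage formation, and LOXL2 is a secreted enzyme that cross-links collagen. The study asked what governs osteoblast differentiation under BMP2, and its labels call the cells osteoblasts on the BMP2 arrays and pre-osteoblasts on the others. Each treatment was hybridised to 1 single-colour Agilent array, so no treatment had a replicate, and the strain, age and number of animals are not given in the sources used here. A BMP2 effect rests on 2 arrays with BMP2 against 2 without it. Its error combines the gene's own gap between the BMP2 differences with and without LOXL2 with such gaps pooled over all genes. For a gene with almost no gap the pooled part sets the error, as for Scd2, with a gap of 0 and an SE of 0.05. The p-values therefore measure only these gaps, which may be technical, since nothing in the labels states that separate cell preparations were used.

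The arrays were alike in depth, with 60.4% to 62.2% of non-control spots well above background, and array position cannot be told apart from treatment. The osteoblast genes Runx2 and Col1a1 were above background on all 4 arrays. By the limma test 4 of 7 osteoblast markers (Sp7, Alpl, Bglap and Ibsp) were higher with BMP2, as 10.3% of all genes were. Runx2, Col1a1 and Col1a2 did not pass, with fitted log2 changes of 0.08, -0.06 and -0.12. All 4 chondrocyte markers were higher by this test, against the same 10.3%, with a median change of 2.92 on the log2 scale. The levels below are scaled intensities in arbitrary units, each array being brought to a 75th percentile of 725.5, and they compare arrays for 1 probe, not probes with each other. In whole cultures, fewer cells of a type and less RNA per cell cannot be told apart.

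Cholesterol is built from acetyl-CoA through mevalonate, isoprenoid units, squalene and lanosterol. Fatty acids are built from the same acetyl-CoA by way of malonyl-CoA, then elongated and desaturated. Both routes are controlled by the SREBP transcription factors, which SCAP carries to the Golgi for cleavage when sterol is low and INSIG proteins hold in the endoplasmic reticulum when sterol is high. SREBP-2, from Srebf2, acts mainly on sterol genes and the SREBP-1c form from Srebf1 mainly on fatty acid genes. SREBPs bind a sterol regulatory element and act together with NF-Y, which binds CCAAT, and with Sp1, which binds GC-rich boxes.

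Promoters are shown for the 4 members that passed the BMP2 test and have one listed: the sterol enzymes Nsdhl and Pmvk, the acetyl-CoA synthetase Acss2 and the acetyl-CoA carboxylase Acaca. Beside them stands Hmgcs1, the only one of the 23 members with a listed promoter that held the sterol element searched for. Each stretch is the 150 bases before a RefSeq gene start in GRCm38.p6, on the plus strand. They lie at chr13:119690201-119690350 for Hmgcs1, chrX:72918371-72918520 for Nsdhl, chr3:89454391-89454540 for Pmvk, chr2:155517893-155518042 for Acss2 and chr11:84195288-84195437 for Acaca. Capitals mark CCAAT on either strand (ATTGG where it lies on the minus strand) and, in Hmgcs1, the match to TCACNCCAC.
Hmgcs1: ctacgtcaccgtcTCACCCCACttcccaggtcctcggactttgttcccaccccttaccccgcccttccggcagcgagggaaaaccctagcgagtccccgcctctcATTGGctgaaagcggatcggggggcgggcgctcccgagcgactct
Nsdhl: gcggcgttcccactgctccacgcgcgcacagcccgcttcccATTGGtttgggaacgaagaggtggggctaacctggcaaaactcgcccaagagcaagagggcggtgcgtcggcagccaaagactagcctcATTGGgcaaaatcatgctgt
Pmvk: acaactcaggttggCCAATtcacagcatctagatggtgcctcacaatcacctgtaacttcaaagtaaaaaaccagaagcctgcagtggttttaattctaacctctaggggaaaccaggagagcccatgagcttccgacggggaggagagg
Acss2: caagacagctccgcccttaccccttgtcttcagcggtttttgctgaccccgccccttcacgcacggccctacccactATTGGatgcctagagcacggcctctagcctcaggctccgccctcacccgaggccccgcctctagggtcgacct
Acaca: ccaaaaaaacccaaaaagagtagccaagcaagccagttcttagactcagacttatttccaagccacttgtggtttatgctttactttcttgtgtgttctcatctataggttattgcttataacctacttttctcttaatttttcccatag

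In Hmgcs1 the TCACNCCAC match began 137 bases before the start and the CCAAT box 45 bases before it, so the marked motifs did not overlap. Nsdhl had CCAAT boxes at 109 and 20 bases before the start, and Acss2 had one at 73. Pmvk has 2 listed promoters, and the one shown was chosen because it holds CCAAT, at 136, while the other had none. The 1 promoter listed for Acaca held none of the motifs searched, and whether these cells use that start was not tested. Over the 250 bases before the start, searched on both strands, 23 of the 30 members had a listed promoter. A gene with several listed promoters counted if any of them held the motif. In Dhcr7, Insig2, Pmvk and Srebf1 only some of the listed promoters held CCAAT. Counted so, CCAAT was present in 19 of the 23, or 82.6%, against 37.5% of the 27025 genes with a listed promoter. The sterol enzymes and regulators with a promoter held it in 13 of 13 and 4 of 4 genes, and the fatty acid enzymes in 2 of 6 (Acss2 and Fasn). The GC box GGGCGG was present in 82.6% of the members against 35.4% of all genes, and the E-box CACGTG in 17.4% against 6.86%. TCACNCCAC was present in 1 of 23 members, or 4.35%, against 1.22% of all genes. These are counts of letters in a window, and no binding was measured.

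The genes that changed with BMP2 did so in both directions. By the limma test with p-values adjusted over 24041 genes, 5 of the 30 members passed the threshold of 0.05, 2 higher and 3 lower, where 20.3% of all genes passed, 10.3% higher and 9.97% lower. The members' share was thus near that of all genes, and under other settings between 0 and 18 of them passed. An unadjusted p under 0.05 was found for 17 of the 30, and for 42.9% of all genes. Higher with BMP2 were Acaca and Scd2, which make malonyl-CoA and monounsaturated fatty acids. Lower were Nsdhl and Pmvk of the sterol route and Acss2, which makes acetyl-CoA from acetate. No member differed by 1.5-fold or more in both pairs of arrays (BMP2+LOXL2 against LOXL2, and BMP2 against untreated), where 11.3% of all genes did. The split of the called members moved with the scaling: 4 were higher and 2 lower when arrays were centred on their median, and 0 higher and 3 lower after quantile normalization. Without a filter on dim probes no gene on the array passed.

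**Figure D1:**
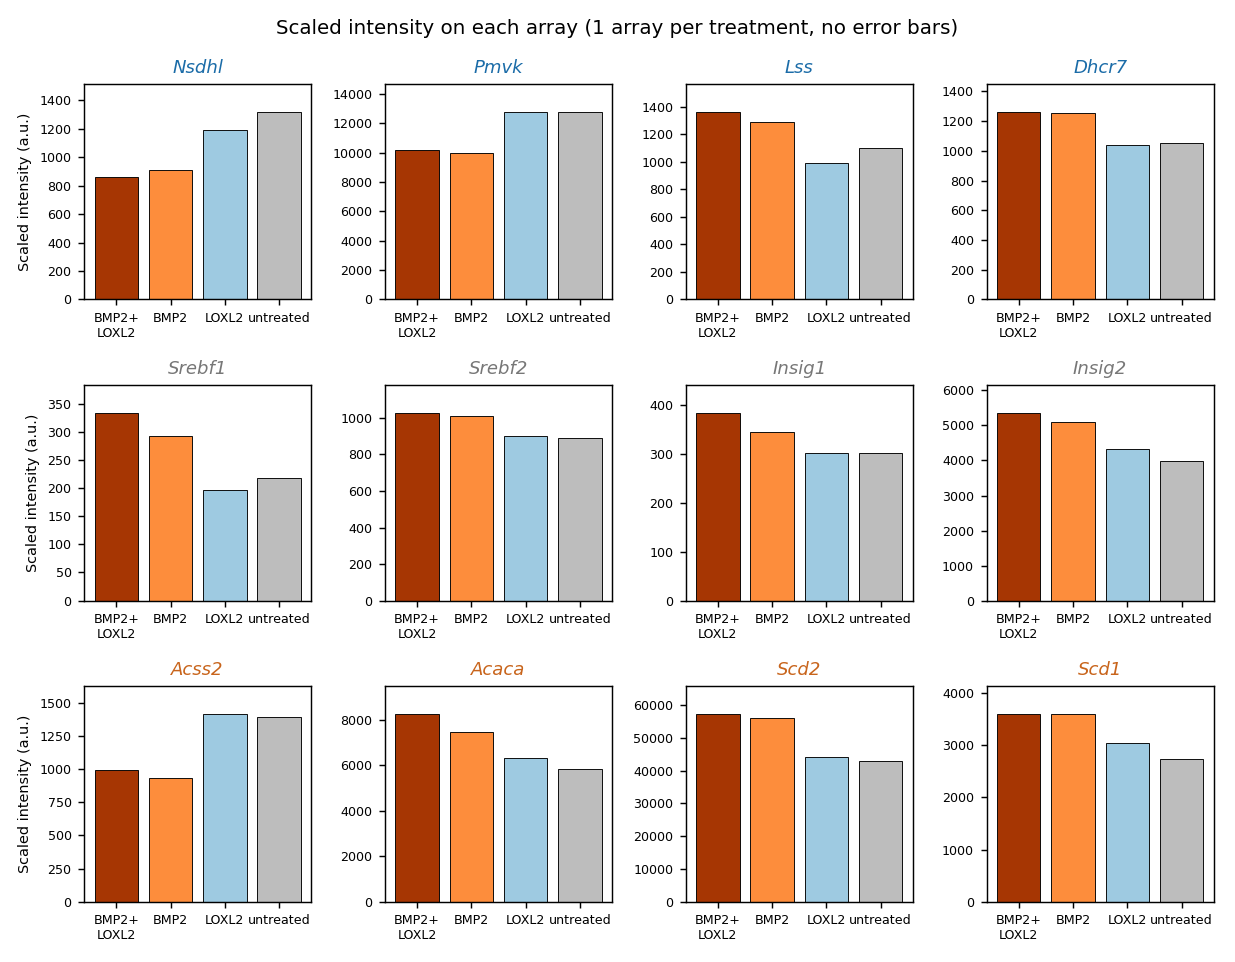
Scaled intensity (arbitrary units, axis from 0) of 12 members on each of the 4 arrays, with sterol enzymes in the top row, regulators in the middle and fatty acid enzymes at the bottom. Each bar is 1 array, so there are no error bars. Nsdhl, Pmvk and Acss2 lie lower on both BMP2 arrays than on both arrays without BMP2, and Acaca and Scd2 lie higher. Over all genes 32.8% lay lower in this way and 38.1% higher.

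The early sterol route, which runs from acetyl-CoA units to squalene, held a called gene beside others with small values. Pmvk, the phosphomevalonate kinase, had 10190 scaled intensity units with BMP2+LOXL2 and 9961 with BMP2, against 12791 with LOXL2 and 12778 in untreated cells. Both BMP2 arrays lay below both arrays without BMP2, as for 32.8% of all genes. The fitted log2 change was -0.34 ± 0.05 (SE, limma adjusted p = 0.0496), just inside the threshold. A second Pmvk probe gave a mean difference of -0.37. The probe used lies at chr3:89272867-89272926 in mm9, the build of the array files. Mvk, which makes the phosphomevalonate that Pmvk uses, had a change of -0.23 (limma adjusted p = 0.0875), and Mvd, the decarboxylase that follows Pmvk, had 0.21 (adjusted p = 0.1). Hmgcs1, Idi1 and Fdps, which supply and join the isoprenoid units, had changes of -0.05, -0.03 and -0.02. Fdft1, the squalene synthase, had 0.19 (limma adjusted p = 0.107).

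Among the enzymes that turn squalene into cholesterol, Nsdhl fell with BMP2. This sterol dehydrogenase, which acts in removing methyl groups from the ring, had 864 units with BMP2+LOXL2 and 912 with BMP2, against 1192 with LOXL2 and 1320 in untreated cells. Both BMP2 arrays lay below both others, as for 32.8% of all genes. The log2 change was -0.50 ± 0.06 (SE, limma adjusted p = 0.0365), with a 95% interval of -0.69 to -0.31. A second Nsdhl probe gave -0.41. The probe used lies at chrX:70202803-70202862 (mm9).

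No other enzyme of this stretch passed the test. Lss, which closes squalene epoxide into lanosterol, had 1364 units with BMP2+LOXL2 and 1290 with BMP2, against 991 with LOXL2 and 1104 in untreated cells. Both BMP2 arrays lay above both others, as for 38.1% of all genes. The log2 change of 0.34 ± 0.09 missed the threshold (limma adjusted p = 0.0952, 95% interval 0.04 to 0.64). Dhcr7, the last reductase of the route, had 1263 units with BMP2+LOXL2 and 1257 with BMP2, against 1037 with LOXL2 and 1052 in untreated cells. Its change of 0.27 ± 0.05 was close to the threshold (limma adjusted p = 0.0651). Sc4mol, the methyl oxidase that acts just before Nsdhl (current symbol Msmo1), had 0.18, and Hsd17b7, the ketoreductase that acts after it, had -0.11. Sqle, Ebp, Cyp51 and Sc5d had changes of 0.16, 0.11, -0.01 and -0.01. Hsd17b7 also has a dim probe, with 18.6 units with BMP2+LOXL2 and 20.9 with BMP2, against 28.5 with LOXL2 and 32.2 in untreated cells, and its brighter probes differed less.

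Across the 16 sterol enzymes, 0 rose and 2 fell, where 10.3% of all genes rose and 9.97% fell. An unadjusted p under 0.05 was found for 8 of the 16, near the 42.9% of all genes. The median log2 change was -0.01, within a range of -0.50 to 0.34, where the median of all genes was 0.02. Both BMP2 arrays lay above both others for 7 of the 16 and below them for 5. Over all 30 members these counts were 16 above and 8 below, with 6 overlapping, where 38.1% of all genes lay above and 32.8% below. The median change of the sterol enzymes was 0.09 in the LOXL2 pair and -0.08 in the pair without LOXL2.

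**Figure D2:**
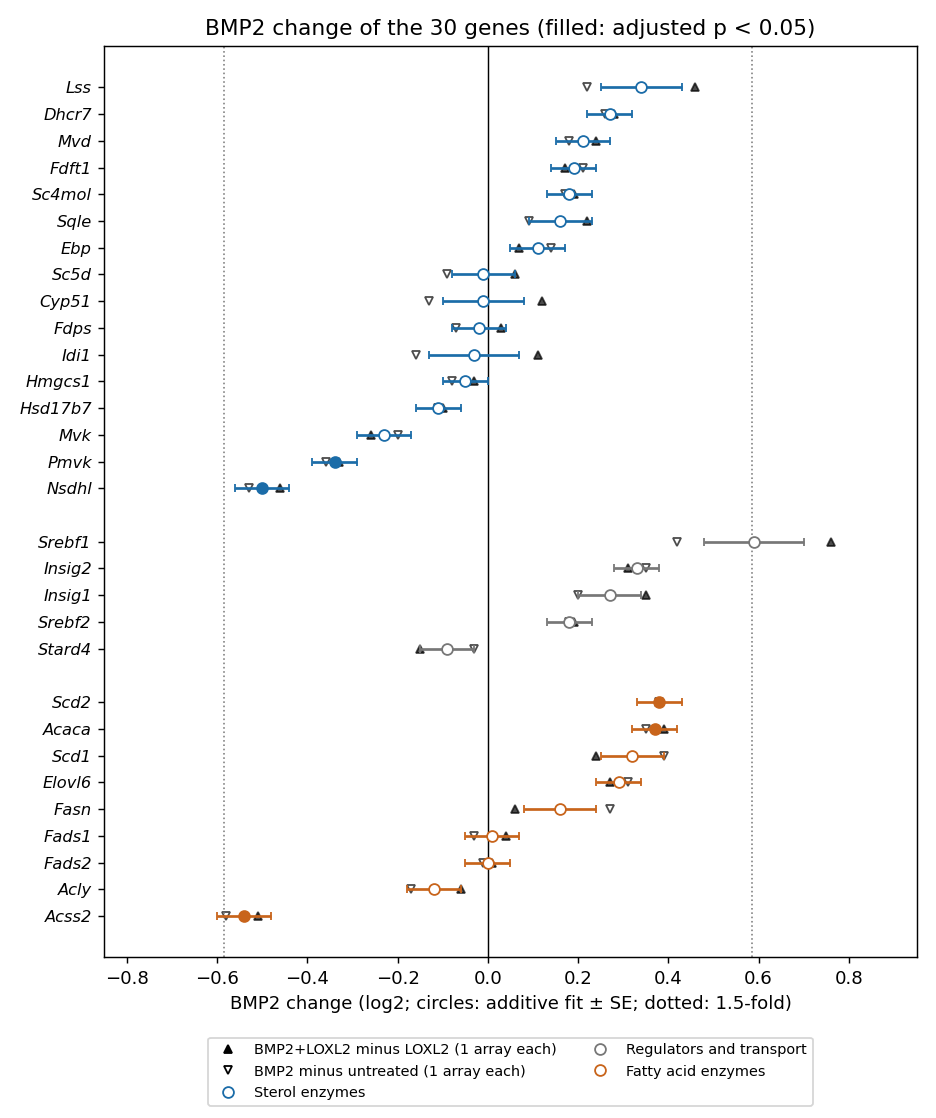
BMP2 change on the log2 scale for the 30 members, grouped as sterol enzymes, regulators and transport, and fatty acid enzymes. Circles with bars are the additive fit and its SE, filled where the adjusted p is under 0.05, up-triangles are BMP2+LOXL2 minus LOXL2 and down-triangles BMP2 minus untreated (1 array each), and dotted lines mark 1.5-fold. The 5 filled circles are Pmvk, Nsdhl, Scd2, Acaca and Acss2, and Srebf1 alone has values past a dotted line, its difference of 0.76 in the LOXL2 pair and, barely, its fitted change of 0.59.

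None of the 5 regulators and carriers passed the BMP2 test, which 20.3% of all genes passed. Of the 5, 4 had an unadjusted p under 0.05, as 42.9% of all genes did. Srebf1, which encodes SREBP-1, had 334 units with BMP2+LOXL2 and 292 with BMP2, against 197 with LOXL2 and 218 in untreated cells. Both BMP2 arrays lay above both others, as for 38.1% of all genes. The log2 change of Srebf1, 0.59 ± 0.11, was the largest in size of the 30 in this fit, but its limma adjusted p was 0.0646 (95% interval 0.20 to 0.97). The BMP2 difference was 0.76 with LOXL2 and 0.42 without it, and this difference between the pairs has no test. Its probe lies at chr11:60012664-60012723 (mm9). The array does not separate the SREBP-1a and SREBP-1c forms by name.

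Srebf2, which encodes SREBP-2, had 1027 units with BMP2+LOXL2 and 1009 with BMP2, against 900.3 with LOXL2 and 891 in untreated cells. The change was 0.18 ± 0.05 (limma adjusted p = 0.108). Insig2, an anchor of the SCAP complex in the endoplasmic reticulum, had 5356 units with BMP2+LOXL2 and 5086 with BMP2, against 4322 with LOXL2 and 3992 in untreated cells. Its change of 0.33 ± 0.05 lay just outside the threshold (limma adjusted p = 0.0524). A second Insig2 probe, also above background on all 4 arrays, gave a smaller mean difference of 0.17. Insig1, itself a target of SREBP, had 384 units with BMP2+LOXL2 and 346 with BMP2, against 302 with LOXL2 and 302 in untreated cells, a change of 0.27 ± 0.07 (limma adjusted p = 0.0924). In these 4 genes both BMP2 arrays lay above both others, as they did for 38.1% of all genes. The fitted change was positive under each of the 11 settings tried. These settings reuse the same 4 arrays, and several leave the fitted value unchanged, so this is no independent check.

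Stard4, a carrier of cholesterol in the cytosol, had a change of -0.09 (limma adjusted p = 0.384). Its second, dimmer probe gave a mean difference of -0.51, so its probes disagree. The median of the 5 regulators and carriers was 0.27 with BMP2.

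The fatty acid enzymes held the members that rose. Acaca, the acetyl-CoA carboxylase that makes malonyl-CoA, had 8250 units with BMP2+LOXL2 and 7444 with BMP2, against 6318 with LOXL2 and 5831 in untreated cells. Both BMP2 arrays lay above both others, as for 38.1% of all genes. The log2 change was 0.37 ± 0.05 (SE, limma adjusted p = 0.0463). The other 3 Acaca probes are a weaker check. One, with a mean difference of 0.39, is placed by the array file on chromosome 12, off the Acaca locus. Another, also at 0.39, is dim, and its pairs differed, with 0.10 under LOXL2 and 0.68 without it. The last, also dim, gave 0.11. The probe used lies at chr11:84215093-84215152 (mm9). Scd2, a desaturase that makes monounsaturated fatty acids, had 57201 units with BMP2+LOXL2 and 55892 with BMP2, against 44101 with LOXL2 and 42997 in untreated cells. Its change was 0.38 ± 0.05 (SE, limma adjusted p = 0.0446), with 0.38 in both pairs, at chr19:44381024-44381083 (mm9).

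Acss2 fell. This cytosolic synthetase had 995 units with BMP2+LOXL2 and 934 with BMP2, against 1413 with LOXL2 and 1395 in untreated cells. Both BMP2 arrays lay below both others, as for 32.8% of all genes. The log2 change was -0.54 ± 0.06 (SE, limma adjusted p = 0.0338), with a 95% interval of -0.73 to -0.35. A second Acss2 probe gave -0.39. The probe used lies at chr2:155388416-155388475 (mm9). Acly, which makes the same acetyl-CoA from citrate, had -0.12 (limma adjusted p = 0.26).

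Scd1, Elovl6, Fasn, Fads1 and Fads2, which act after Acaca, did not pass the test. Scd1, the other main desaturase, had 3595 units with BMP2+LOXL2 and 3593 with BMP2, against 3041 with LOXL2 and 2741 in untreated cells, a change of 0.32 ± 0.07 (limma adjusted p = 0.0759). Elovl6, which elongates palmitate, had 3437 units with BMP2+LOXL2 and 3523 with BMP2, against 2860 with LOXL2 and 2844 in untreated cells. Its change was 0.29 ± 0.05 (limma adjusted p = 0.0619). Scd1 and Elovl6 each had both BMP2 arrays above both others, as 38.1% of all genes did. Fasn, the fatty acid synthase, had 0.16 (limma adjusted p = 0.247), and the polyunsaturated desaturases Fads1 and Fads2 had 0.01 and 0.00. The 9 enzymes had a median of 0.16 within -0.54 to 0.38. By the limma test 2 were higher and 1 lower, where 10.3% of all genes were higher and 9.97% lower. An unadjusted p under 0.05 was found for 5 of the 9, and for 42.9% of all genes. The median of the 9 enzymes was 0.06 in the LOXL2 pair and 0.27 in the pair without LOXL2.

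Around these 30 genes, 50 further genes of sterol and fatty acid handling were measured, and 15 of them rose and 6 fell with BMP2 by the limma test, where 10.3% of all genes rose and 9.97% fell. The same shares of all genes stand behind the counts of each group below, and these groups are small. The counts include Cyp27a1, higher, and Thrsp, lower, each below background on 1 side of the comparison. In sterol synthesis the largest change was outside the listed enzymes. Tm7sf2, a sterol reductase, had 1882 units with BMP2+LOXL2 and 1789 with BMP2, against 3614 with LOXL2 and 3431 in untreated cells, a log2 change of -0.94 ± 0.05 (limma adjusted p = 0.0227). It was the 1 of 6 other sterol enzymes that passed.

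Uptake and processing genes were mixed, with 3 higher and 1 lower of 8 and a median of 0.30. Npc1, which exports cholesterol from lysosomes, changed by 1.05 ± 0.13 and Lrp8, a lipoprotein receptor, by 0.83 ± 0.09 (limma adjusted p = 0.0415 and 0.0335).

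Of 8 genes of sterol efflux, esterification and LXR signalling, 4 rose and 0 fell, with a median of 0.50 (0.33 with Cyp27a1 at its bound). Ch25h, which makes an oxysterol that blocks SREBP processing, had 2011 units with BMP2+LOXL2 and 2297 with BMP2, against 526 with LOXL2 and 502 in untreated cells. That is a log2 change of 2.06 ± 0.09, or 4.18-fold (limma adjusted p = 0.0206). Abcg1, a sterol exporter, changed by 1.01 ± 0.13 and Soat1, which esterifies cholesterol, by 0.86 ± 0.10 (limma adjusted p = 0.041 and 0.0368). Cyp27a1, an oxysterol-forming hydroxylase, was not well above background without BMP2 and was at least 1.23-fold higher with it. Such a bound sets the dim arrays at the lowest signal well above background there, or at the probe's own signal where that is higher. Cyp27a1 passed the filter only through the BMP2 arrays. Its call, counted among the 4, uses signals below background and adds nothing to the bound. Abca1, the other main exporter, had -0.15 (limma adjusted p = 0.205).

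Fatty acid activation, elongation and NADPH supply held 5 genes that rose and 1 that fell of 15, with a median of 0.21. Me1, which supplies NADPH, had 21893 units with BMP2+LOXL2 and 19996 with BMP2, against 12366 with LOXL2 and 12025 in untreated cells, a change of 0.78 ± 0.06 (limma adjusted p = 0.0263). Mid1ip1, an activator of acetyl-CoA carboxylase, changed by 0.68 ± 0.08 (limma adjusted p = 0.0365). Its relative Thrsp was not well above background with BMP2 and was at least 2.2-fold lower there. Thrsp passed the filter only through the arrays without BMP2. Its call, the 1 that fell, uses signals below background and adds nothing to the bound. The carboxylase Acacb and the acyl-CoA synthetases Acsl3 and Acsl4 rose by 0.35, 0.41 and 0.38.

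Triglyceride synthesis and fatty acid oxidation differed in the direction of their called genes. Of 5 triglyceride genes 3 rose, and the median was 0.36. They were Lpin1, which makes diacylglycerol (0.76 ± 0.07, limma adjusted p = 0.0297), Dgat2, which completes the triglyceride (0.61 ± 0.06, adjusted p = 0.0329), and the acyltransferase Agpat2 (0.36, adjusted p = 0.0479). Of 8 oxidation genes 3 fell and 0 rose, and the median was -0.17. Cpt1a, which admits fatty acids to mitochondria, had 1289 units with BMP2+LOXL2 and 1361 with BMP2, against 2167 with LOXL2 and 2251 in untreated cells (-0.74 ± 0.05, limma adjusted p = 0.0261). Acadm, a dehydrogenase of medium-chain fatty acids, changed by -0.55 (limma adjusted p = 0.0319) and Ppara, a nuclear receptor for oxidation genes, by -0.34 (limma adjusted p = 0.049).

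**Figure D3:**
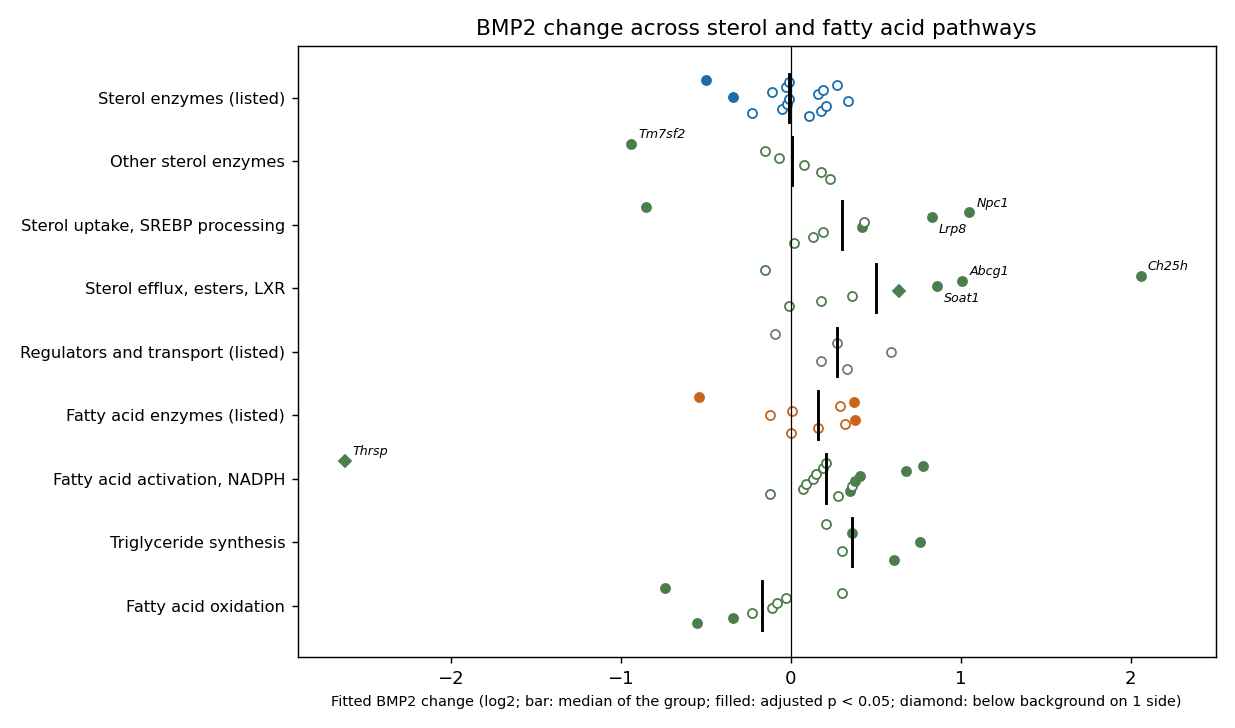
Fitted BMP2 change on the log2 scale of the listed members and of the 50 further genes, by pathway group. Each point is 1 gene, filled where the adjusted p is under 0.05, the bar is the group's median, and a diamond marks a gene below background on 1 side, plotted at its fitted value although its fold is only a bound. Some genes the text names are labelled. Ch25h lies farthest to the right at 2.06, and the medians run from -0.17 in fatty acid oxidation to 0.50 in sterol efflux. With Cyp27a1 at its bound the sterol efflux median is 0.33, below the 0.36 of triglyceride synthesis.

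Markers of other cells were read beside these groups. Of 11 adipocyte markers 8 were measured, and 0 rose and 0 fell with BMP2, where 10.3% of all genes rose and 9.97% fell. The summed scaled intensity of the 8 was 28273 with BMP2+LOXL2 and 27694 with BMP2, against 27396 with LOXL2 and 26647 in untreated cells. Most of that sum is 1 bright probe, Adipor2, a widely expressed receptor, with 18574 units with BMP2+LOXL2 and 17567 in untreated cells. Adipoq, the fat cell hormone adiponectin, was well above background only with BMP2 and was at least 2.05-fold higher there, without passing the test (limma adjusted p = 0.0802). Fabp4, a fatty acid carrier of fat cells, had 0.29 (limma adjusted p = 0.076), and Pparg, the defining factor of fat cells, had 0.05. Cebpa and Adipor2 had 0.20 and 0.02, while Lpl and Cfd had -0.11 each. Plin1 had 0.43, and Plin1 and Cfd were well above background only on the 2 arrays with LOXL2. Cidec, Lep and Retn had no probe that passed the background filter and so were not measured. Of 10 macrophage and leukocyte markers 4 fell and 0 rose, against the same shares of all genes (9.97% and 10.3%). The median of these markers was -0.65. Summed, they had 7054 units with BMP2+LOXL2 and 7363 with BMP2, against 8751 with LOXL2 and 9463 in untreated cells. Csf1r gave most of that sum, with 5464 units with BMP2+LOXL2 and 6654 in untreated cells, and a change of -0.22. The markers that fell were Mrc1, Aif1, Lyz2 and C1qc, by 1.55, 0.98, 0.89 and 0.85 on the log2 scale. The part of the chondrocyte, adipocyte and macrophage markers in the changes above was not tested.

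LOXL2 left these genes without a detectable change. By the limma test 0 of the 30 members passed, as did 0% of all genes, and 0 members had an unadjusted p under 0.05, where 1485 genes, or 6.18%, did. The fitted LOXL2 changes of the members lay between -0.11 and 0.13, and their lowest adjusted p was 0.792. No member differed by 1.5-fold in both LOXL2 pairs (BMP2+LOXL2 against BMP2, and LOXL2 against untreated), as 0.437% of all genes did. In cells without BMP2, 14 of the 16 sterol enzymes were lower with LOXL2, where 51.9% of all genes were, but the median difference was only -0.08. Idi1, Cyp51 and Lss lay lowest there, at -0.21, -0.21 and -0.16. Under BMP2, 10 of the 16 were higher with LOXL2, where 49.2% of all genes were, with a median of 0.02. Each of these counts compares 1 array with 1 other and has no test.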

How the data were processed

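Expression was measured in 4 cultures on 1 slide. The deposited scanner files give an intensity per spot, which the authors made with Agilent Feature Extraction (version 10.7.3.1, according to the submitters' processing notes) and which is background-subtracted per the file headers. The authors' deposited value table holds intensity per probe, equal within 0.1% to the scanner mean for 99.47% to 99.49% of probes.

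Here, log2 processed signals had each array's 75th percentile (710.5 to 742.9) subtracted, 109 to 144 outlier spots per array were dropped, and spots of a probe were averaged. Probes well above background on at least 2 of 4 arrays were kept, and the brightest stood for its gene. Accessions of 26762 probes were named through RefSeq (GRCm38.p6), while 28919 retained their deposited names. The effects of BMP2 and LOXL2 were fitted additively with limma 3.58.1 in R 4.3.3 and checked on simulated data. The fit has 1 residual degree of freedom, to which the empirical Bayes step added 1.72. P-values are two-sided, with Benjamini-Hochberg adjustment over 24041 genes. The median spot SD was 0.0649 to 0.0674 (log2), and the number of arrays limits the precision.

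Members and lists were chosen with earlier results of these data known. Members named with all values are those called, then the largest fitted BMP2 changes up to 12, plus Srebf1, Srebf2, Insig1 and Insig2. Other pathway genes are named where called, and some are not reported here. Alternatives covered background, scaling, filter, variance model, model terms, probe choice and the value table.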

Additional observations from a re-analysis of the deposited data

Results flagged for a closer look

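Idi1, the isomerase of isoprenoid units, differed in the sign of its BMP2 difference between the pairs. It was 0.11 on the log2 scale with LOXL2 and -0.16 without it, a gap of 0.27. Cyp51, the lanosterol demethylase, had 0.12 with LOXL2 and -0.13 without it, a gap of 0.25. Srebf1 had opposite signs for LOXL2, with a difference of 0.19 under BMP2 and -0.14 without BMP2, a gap of 0.33. All 3 have each single difference beyond 0.095, the error of a difference between 2 arrays from repeated spots alone. That limit holds no variation between hybridisations or cultures, so passing it does not show that a difference exceeds such variation. None of these gaps was tested, because 1 array per treatment leaves no residual for the interaction. The median gap in size over all 24041 genes was 0.108, and 1 gene in 10 exceeded 0.472.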

How the results depend on the processing

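The count of members that changed with BMP2, 5 as reported, depended on the setting. It was 9 when genes had to be above background on all 4 arrays, 18 with trend and robust variance settings, 15 with normexp background correction and 11 with the other protein left out of the model. It was 2 with the mean of a gene's probes, 3 of 45 at the level of probes, 3 after quantile normalization and 0 with no filter, where 10 members had an unadjusted p under 0.05 and the smallest adjusted p of any gene was 0.09. The cause was not tested. Median centring gave 6, and 4 passed with the deposited value table. Over all genes the count was 4883, with 9086 under normexp, 10389 under trend and robust settings and 0 without a filter. Acss2 passed in 10 of 11 settings, Nsdhl in 9, Scd2 in 8, Acaca in 7 and Pmvk in 6. Members past 1.5-fold in both pairs numbered 0 except at probe level, with 1, the dim Hsd17b7 probe. No member passed for LOXL2 in the 11 settings. The sterol median was -0.009, 0.041 under median centring, and otherwise between -0.049 and -0.009, where the median of all genes was 0.017, and 0.068 under median centring. The fatty acid median lay between 0.108 and 0.214. Signs turned for values near 0: under median centring Cyp51 (0.0433), Fdps (0.0315), Idi1 (0.0251) and Sc5d (0.0388); under normexp Fads1 (-0.00618) and Fads2 (-0.0026); under quantile normalization Fads1 (-0.0395); with the mean of probes Fads2 (-0.0387); and with the value table Fads2 (-0.00425). Of the other values of single members, 241 kept their side of the threshold, 35 gained a call and 15 lost one. No paired analysis was possible because each treatment has 1 array and the labels give no replicate numbers. Leaving out an array leaves no residual degree of freedom, so that test was not run. Every member was above background on all 4 arrays.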
